A study of Mus musculus with 23 samples.

Results

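The cytosolic ribosomal proteins are the protein part of the ribosomes that translate messenger RNA outside mitochondria. Their genes were taken from the gene symbols of the deposited tables: symbols that begin with Rpl or Rps and a digit, the stalk genes Rplp0, Rplp1 and Rplp2, and Rpsa, without pseudogene symbols and without the S6 kinase genes. The rule found 86 of 23481 symbols. Of these, 31 encode proteins of the small subunit, 43 proteins of the large subunit, 3 the P stalk and 8 paralog variants of other members, while Rps19bp1 encodes a protein that binds RPS19 and is no ribosomal protein itself. The rule misses ribosomal components with other names, of which Fau and Gnb2l1 (also called Rack1) are reported separately.

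The study used an antibody to the phosphorylated form of ribosomal protein S6 to pull down ribosomes, and sequenced the RNA that came with them, from the olfactory epithelium of C57BL/6 mice at postnatal day 21. Mice were exposed for 1 h. The acetophenone experiment held 5 control libraries (litters 1 to 5), 3 libraries at 1% (litters 3 to 5) and 3 at 100% (litters 1 to 3). The TMT experiment (trimethylthiazoline, a compound of fox secretions) held 4 control libraries, 4 at 1% and 4 at 100%, 1 of each from each of litters 1 to 4. The controls also went through the pull-down, no library of unprecipitated RNA was used here, and the labels do not say what the controls were exposed to or whether animals were pooled.

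Ribosomal protein S6 (Rps6) is a small subunit protein that S6 kinases, which act below the growth regulator mTOR, and other kinases phosphorylate on a cluster of serines at its C-terminal end. In neurons this happens after activity, so the pull-down enriches ribosomes, and the RNA on them, from recently active cells. Messenger RNAs of ribosomal proteins mostly begin with a 5′ terminal oligopyrimidine tract (TOP), a run of C and T bases at the transcript start, and their translation depends strongly on mTOR. Ribosomal protein genes have also left many processed pseudogenes in mammalian genomes, which are copies of the spliced transcript inserted elsewhere. A read from such a transcript can therefore match many places in the genome.

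The end of the Rps6 coding sequence is shown first, because it encodes the stretch of S6 with the cluster of serines that is phosphorylated. Which of them the antibody recognises is not given in the labels. It comes from the GENCODE transcript of Rps6 (mm10, which is GRCm38, chr4:86854705-86854758, minus strand, within 1 coding exon) and covers codons 232 to 249, the last 18 before the stop codon. Capitals mark the 7 serine codons, which are codons 235, 236, 240, 242, 244, 246 and 247.
Rps6: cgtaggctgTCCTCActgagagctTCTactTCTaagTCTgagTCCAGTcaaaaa

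RefSeq promoter windows of GRCm38.p6 were held for 65 of the 86 genes. In 20 of these 65 genes (30.8%) an annotated start lay inside a run of at least 5 pyrimidines, against 11.8% of all 27025 genes of the table. The window around the start, 10 bases before and 20 after, is shown for Rps6 and for the 3 other subunit genes with the longest run of C and T over the start. Capitals mark that run within the window. The same window is shown for Rps4x, Rps25 and Rpl5, the 3 genes called with TMT below, whose annotated starts lie in no such run. Annotated starts can be off by some bases, and a start outside such a run says only that these letters are not there.
Rps6 (chr4:86857348-86857377, minus strand): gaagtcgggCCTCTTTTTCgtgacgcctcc
Rpl7a (chr2:26910797-26910826, plus strand): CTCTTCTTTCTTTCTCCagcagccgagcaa
Rpl27a (chr7:109519185-109519214, plus strand): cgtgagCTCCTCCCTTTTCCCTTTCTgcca
Rpl34 (chr3:130730318-130730347, minus strand): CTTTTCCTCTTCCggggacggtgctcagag
Rps4x (chrX:102189372-102189401, minus strand): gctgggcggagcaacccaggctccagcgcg
Rps25 (chr9:44407704-44407733, plus strand): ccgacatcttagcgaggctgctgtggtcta
Rpl5 (chr5:107900518-107900547, plus strand): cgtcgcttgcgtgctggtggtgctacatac
The motif CCGGAAG, searched on both strands of the whole 300-base window, was present in 40% of the 65 genes and in 9.93% of all genes, and CTTTCC, searched the same way, in 53.8% of the 65 and in 29.3% of all. The 2 motifs can overlap each other and a pyrimidine run. These shares describe the windows only.

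Each deposited file gives, for every gene, 20 running sums. From the values they were read as counts of reads with 1 place of alignment, with 2 places added to these, and further in single steps until 20. The first sum is called the unique count here and the last the estimated count. Unique counts were 9.74% of the estimated counts summed over the 86 genes and 23 libraries, against 65.4% over all other genes. Of the 81 genes with a summed estimated count of at least 1000, 45 had less than 1% of it in unique counts and 13 had 10% or more, with a median of 0.599%. Reads that match a gene and its pseudogenes cannot be assigned to one of them, so the estimated count of a gene can take in any transcribed copy. For 52 of the 86 genes the deposited values were whole numbers in every column and library (within 0.000001).

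The lowest unique shares belonged to Rpl5 (0.0247%), which with Rpl11 carries 5S ribosomal RNA into the large subunit, to Rpl15 (0.0264%), a large subunit protein, and to Rps6 (0.029%). For Rps6 this was 107 unique of 369125 estimated counts. Its unique count was between 0 and 16 per library, too few to compare groups, while its estimated count was between 5006 and 45848. The most common number of places for an Rps6 read was 9, and its median was 11. At the other end, Rps19bp1 had 100% unique counts, and the large subunit protein gene Rpl8 had 90.3%.

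Genes therefore differed in how many places their reads matched, between a median of 1 place (Rpl8, Rpl22 and Rps27l among them) and a median of 20 (Rps12 and Rpl29). In Rps12 82.9% and in Rpl29 72.4% of the estimated counts came from reads with 19 or 20 places. Reads with more than 20 places are not in these sums, and 9 of the 81 genes had at least 10% of their counts at 19 or 20 places. The median number of places, taken in each library with at least 20 counts of a gene, lay between 11 and 12 for Rps6, between 7 and 8 for Rps4x and at 3 for Rps10. Of the 84 genes with such a value, 46 had the same median in each of these libraries, in 29 it varied by 1 place and in 8 by 2 places. The exception was Rpl21, between 5 and 17 over 13 libraries. Where a gene had at least 100 unique counts in every library, both counts could be set side by side. There were 8 such genes, among them Rpl4, Rpl8, Rpl22, Rps3 and Rps27l, and over the 23 libraries their log2 unique and estimated levels had a Pearson correlation between 0.92 and 1.00. These are descriptions over libraries that share litters and experiments, and the unique count is part of the estimated count.

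**Figure D1:**
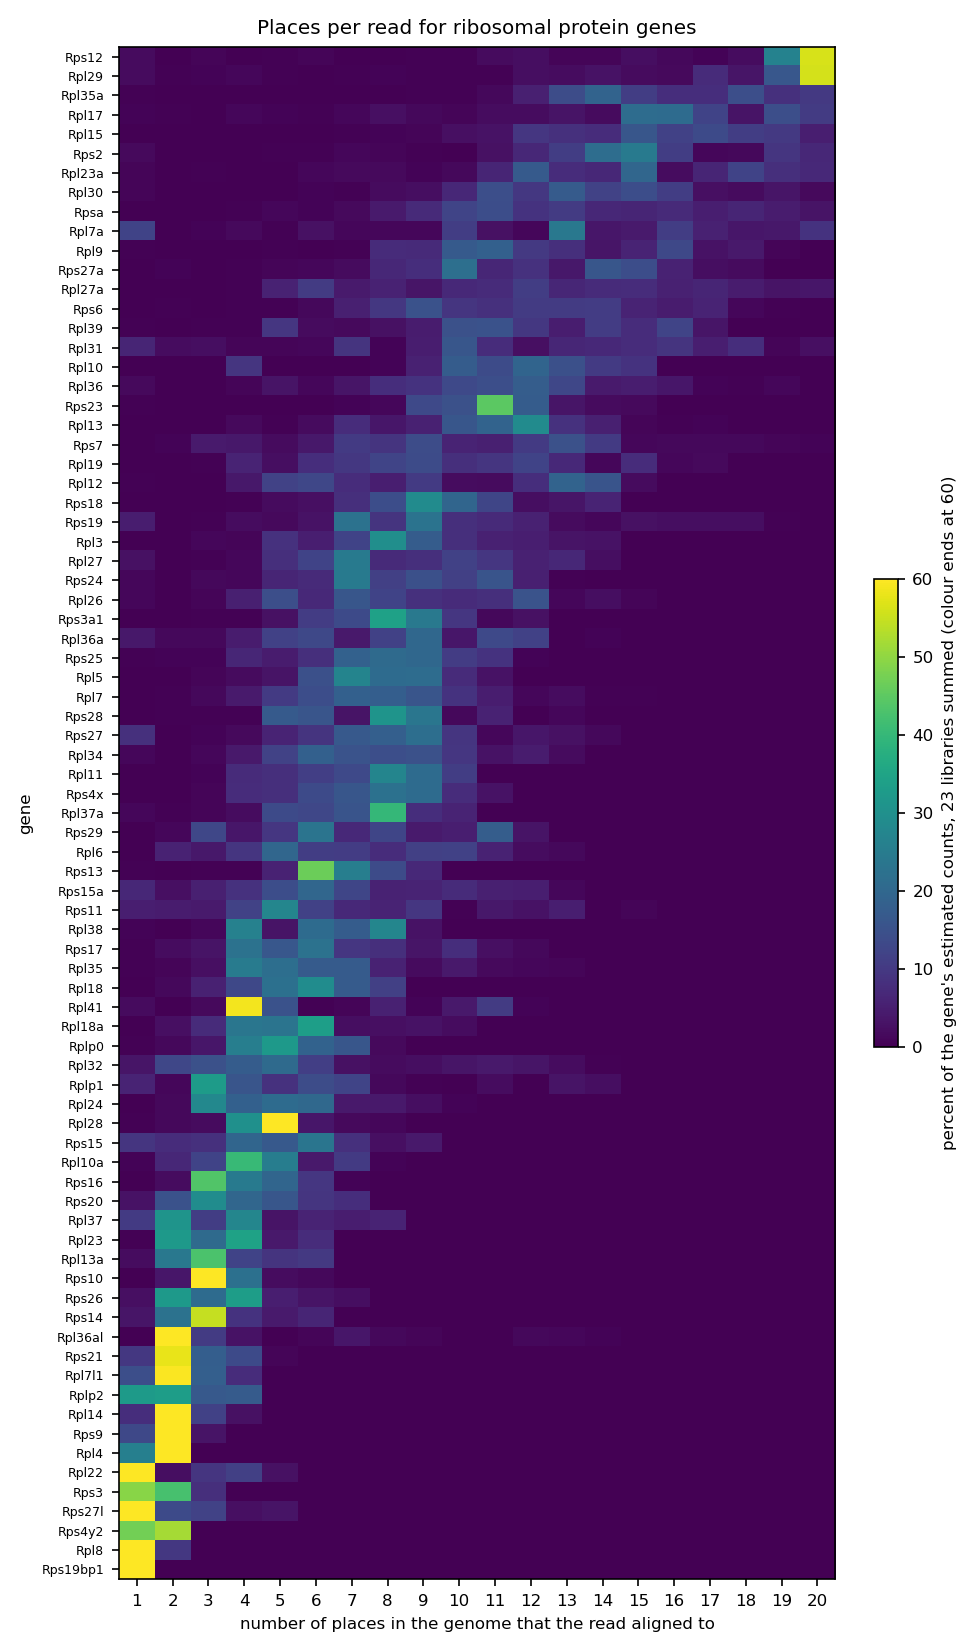
Share of each gene's estimated counts (colour, percent, 23 libraries summed) by the number of genome places its reads aligned to (horizontal axis), for 79 of the 81 genes with a summed estimated count of at least 1000, ordered by their mean number of places. Rpl8 and Rps19bp1 at the bottom sit at 1 place, Rps6 is spread around 11 places, and Rps12 and Rpl29 at the top pile up at 19 and 20.

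Estimated counts summed to between 3160667 and 5980199 per library in the acetophenone experiment and to between 4353848 and 15965097 in the TMT experiment. The share of these counts on the 86 genes, given in order of litter, was 5.48, 5.42, 4.7, 5.52 and 4.96% in the acetophenone controls, 5.63, 5.18 and 4.96% at 1% (litters 3 to 5), and 5.39, 3.91 and 4.43% at 100% (litters 1 to 3). In the TMT experiment it was 9.04, 10.1, 10 and 8.01% in controls, 6.83, 9.5, 8.96 and 10.7% at 1%, and 7.54, 10.1, 8.32 and 7.35% at 100%. The 95% Wilson interval of a single share was at most 0.0507 percentage points wide, which covers counting error only. The lowest TMT library, 6.83%, lay above the highest acetophenone library, 5.63%, and the same held for unique counts (lowest TMT 1.04%, highest acetophenone 0.842%). Odor experiment, library preparation and read processing cannot be told apart in that difference, and the experiments were compared only through their own controls.

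Within acetophenone, the 100% libraries held a lower share than the control of the same litter in 3 of 3 litters, with means of 4.58 ± 0.751% at 100% and 5.2 ± 0.438% in those controls (SD, n = 3 each). Within TMT, the 100% libraries held a lower share than their control in 4 of 4 litters, with means of 8.31 ± 1.23% at 100% and 9.28 ± 0.969% in controls (SD, n = 4 each). In litter 2 of TMT the ratio of 100% to control was 0.999. At 1%, the share was lower than control in 2 of 3 acetophenone litters and in 3 of 4 TMT litters. The groups overlapped in each of these comparisons. A share also depends on the counts of all other genes, and the cause of these differences was not tested. Nor can fewer cells with many ribosomes and less ribosomal protein mRNA per cell be told apart in such bulk libraries.

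**Figure D2:**
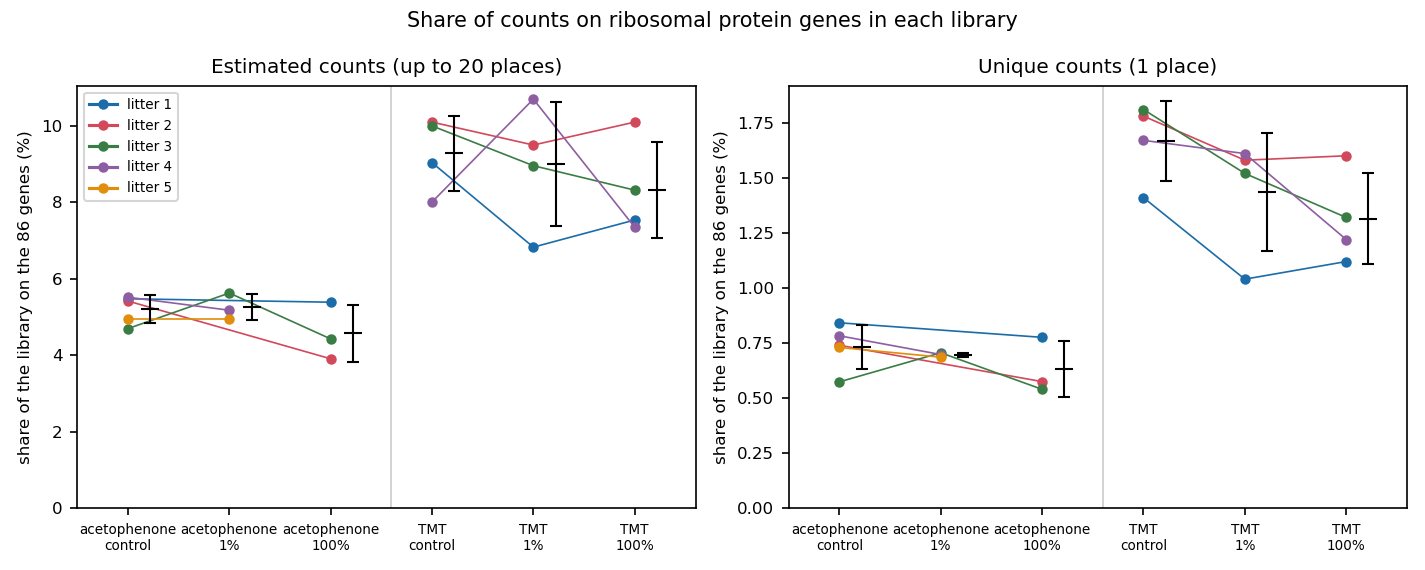
Share of each library's estimated counts (left) and unique counts (right) on the 86 genes, in percent. Points are libraries, lines join libraries of 1 litter, and black marks give mean and SD per group; every TMT library lies above every acetophenone library, and the 100% libraries lie below the control of their litter, in TMT litter 2 with a ratio of 0.999 for estimated counts.

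Levels between genes were compared per coding length, as CPM (a library's estimated counts scaled to a total of 1000000) per kilobase of coding sequence, averaged over the 23 libraries. The 31 small subunit genes had a median of 1354 and the 43 large subunit genes of 1322 CPM per coding kb. Among the highest were Rplp0, the stalk protein that anchors the others, at 4387, and Rplp1, an acidic stalk protein, at 4286 CPM per coding kb. Rplp2, the partner that forms dimers with Rplp1, stood at only 18.5. Rps6 stood at 2600 CPM per coding kb. Other subunit genes with a low listed level were Rpl21 (9.45), Rps15a (16), Rpl37 (25.4) and Rpl7a (47.6), all of which encode proteins of every ribosome. Of the Rpl21 counts, 22.8% came from reads with 19 or 20 places, next to the limit of the tables. For Rpl7a it was 12.7%, and for Rps15a, Rpl37 and Rplp2 0%. Rps12, with 82.9% of such counts, stood at 712 CPM per coding kb. The cause of the low levels was not tested.

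**Figure D3:**
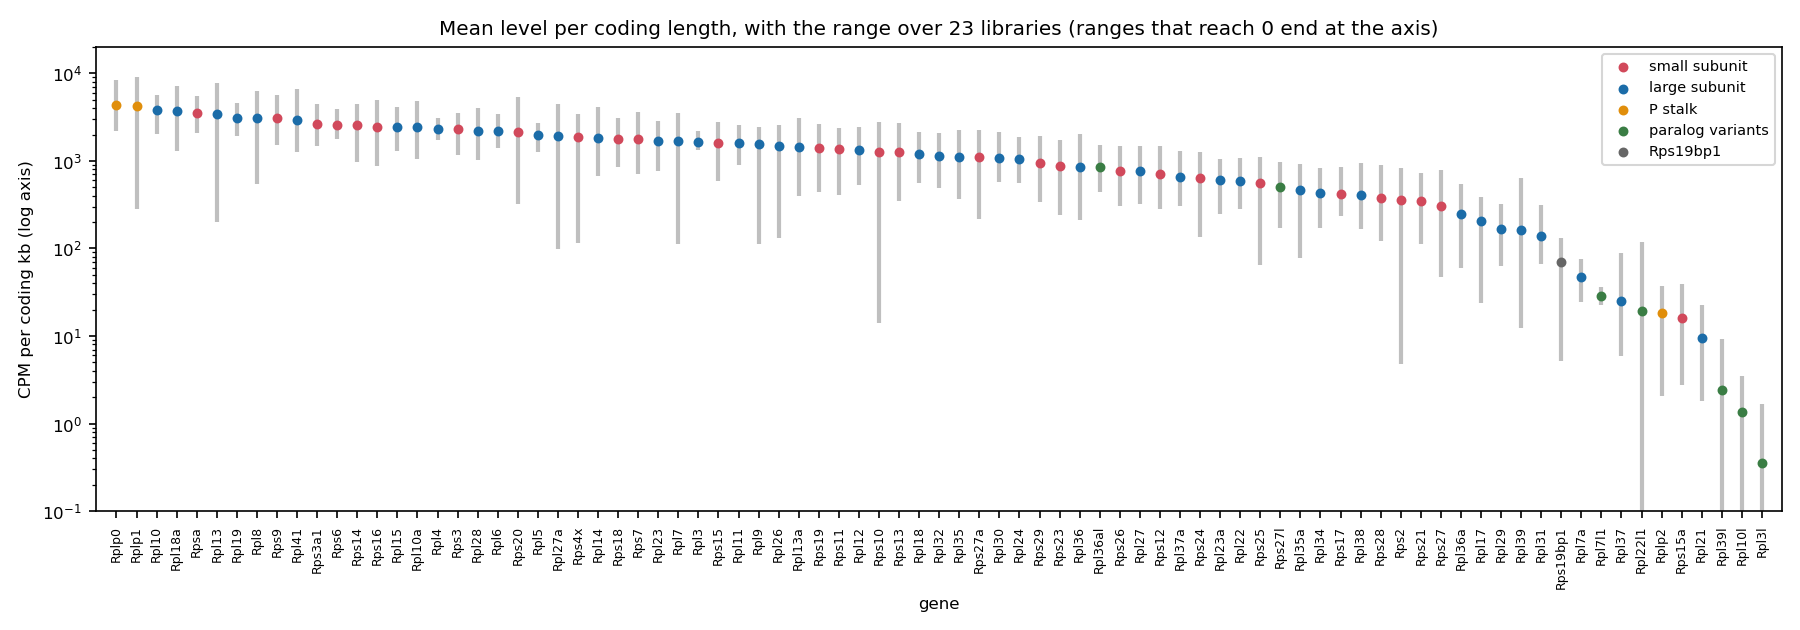
Mean level per coding length (points, CPM per coding kb, log axis) and its range over 23 libraries (grey) for 83 of the 85 genes with a coding length, coloured by class. The level falls gradually over most subunit genes, while Rpl7a, Rpl37, Rplp2, Rps15a and Rpl21 lie among the low paralog variants.

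The paralog variants, which replace or resemble a standard ribosomal protein in some tissues, were mostly low. Rpl3l, the heart and skeletal muscle form of RPL3, had 0.356 CPM per coding kb, Rpl10l, the testis form of RPL10, 1.36 and Rpl39l, also a germ cell form, 2.41, and these were the 3 lowest of all members. Rpl7l1 stood at 28.6 and Rpl22l1 at 19.2, and Rps4y2, which had no coding length, averaged 87.2 CPM. Rps27l (503) and Rpl36al (846 CPM per coding kb) came within the range of the standard subunit genes. Of the 8, 3 (Rpl3l, Rpl10l and Rpl39l) did not pass the filter on low counts in the acetophenone comparisons and 2 (Rpl3l and Rpl39l) in TMT.

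Across the 23 libraries the 78 genes with a mean count of at least 100 had a median SD of log2(CPM + 1) of 0.66. Rpl7l1 (0.18) and Rpl3, a core protein of the peptidyl transferase region (0.19), varied least and Rps2 most (2.42). Rps6 was among the steadier genes, between 1338 and 2911 CPM. Its level averaged 1619 ± 161 in acetophenone controls (n = 5), 1673 ± 363 at 1% and 1513 ± 152 CPM at 100% acetophenone (n = 3 each), and 2172 ± 231 in TMT controls, 2241 ± 466 at 1% and 2386 ± 254 CPM at 100% TMT (SD, n = 4 each). The ranges overlapped within each experiment.

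Differences between groups were tested for all genes with edgeR's quasi-likelihood test on rounded estimated counts, with p-values adjusted by the Benjamini-Hochberg method across the whole table and a threshold of 0.05. A log2 fold change is odor over control. Each fit was made without litter and, since the labels pair libraries by litter, also with litter as a block (within litters). The 2 kinds of fit gave different calls of ribosomal protein genes only for 100% TMT.

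With 100% acetophenone, 82 of the 83 ribosomal protein genes tested had a negative log2 fold change, with a median of -0.43, while the median over all 12382 genes tested was -0.02. No gene passed the test, ribosomal or not (0% of all genes in each direction). At an unadjusted p under 0.05 the count was 0 of the 83 in either direction, against 0.468% of all genes higher and 0.0969% lower. Within litters the median was -0.36 with 80 of 83 negative, 33 were lower at an unadjusted p under 0.05 (2.25% of all genes were), again 0 passed after adjustment, and of all genes 0.0969% were called higher and 0% lower. DESeq2 called 0 of the 83, where 0.0404% of all genes were called higher, and the fit with GC and length correction within litters 0, where 0.0815% were. The median without litter moved to -0.18 without the control library of litter 1 and to -0.58 without that of litter 3. Without litter all 43 large subunit genes, 30 of 31 small subunit genes and 3 of 3 stalk genes had negative values. Within litters it was 42 of 43, 30 of 31 and 2 of 3. With GC and length correction within litters 78 of the 83 were negative, with a median of -0.29 and of -0.03 over all genes tested. In CPM, 36 of the 83 (43.4%) were lower than control in each of the 3 litters, against 7.4% of all genes tested.

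The 6 genes with the smallest p were Rpl32, Rpl35a, Rps28, Rpl27, Rpl35 and Rpl41, with log2 fold changes between -0.87 and -0.58. Rpl32, a large subunit protein, had 315, 201 and 266 CPM in the 100% libraries of litters 1 to 3, against 376, 438 and 347 CPM in their controls. The 3 odor libraries lay below the 3 controls without overlap. The log2 fold change was -0.68 (SE 0.29) without litter and -0.68 (SE 0.19) within litters, with adjusted p = 1 and 0.835 in edgeR's tests. Rps28, a small subunit protein, had 78.2, 33.3 and 56.6 CPM at 100% and 96.3, 119 and 66.5 CPM in controls, so that the groups overlapped. Rps6 had 1617, 1338 and 1584 CPM at 100% and 1581, 1781 and 1793 CPM in controls, a log2 fold change of -0.28 (SE 0.24, adjusted p = 1 in edgeR's test).

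Of genes outside the rule that serve the ribosome or its control, 0 passed the test in the same comparison. Fau (-0.33) and Gnb2l1 (-0.20), which encode RPS30 and RACK1, were both negative. The 76 mitochondrial ribosomal protein genes, which serve another ribosome, had a median of -0.19 with 62 negative. The other TOP mRNAs of a list of 28, such as translation factors, had a median of -0.11 with 21 negative. Of 37 ribosome biogenesis genes tested 24 were negative, with a median of -0.08, and of 34 genes for S6 kinases, their phosphatases and the mTOR pathway 19 were negative, with a median of -0.06. Markers of cell types also differed beside these values, with 0 called in either fit. All 6 mature olfactory neuron markers were positive (median 0.35, within litters 0.36), and their summed level was above that of the litter's own control in 3 of 3 litters, between 894 and 1847 CPM at 100% and between 736 and 1229 CPM in those controls. All 4 gland markers (median -0.54) and all 3 blood markers (median -0.53) were negative without litter, but within litters 2 of the 4 and 2 of the 3 were, with medians of -0.07 and -0.06. Summed gland markers lay between 12343 and 15986 CPM at 100% and between 8645 and 51965 CPM in the controls of these litters, and summed blood markers between 4343 and 7356 CPM at 100% and between 3060 and 16840 CPM in these controls. Of the 4 immune and the 4 ensheathing glia markers 3 each were negative without litter (medians -0.37 and -0.43), and all 4 of each within litters (medians -0.36 and -0.71). The part of cell composition in the ribosomal protein values was not tested.

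With 1% acetophenone the values were small and mostly positive. Of 83 genes tested 70 had a positive log2 fold change, with a median of 0.09 and of 0.00 over all 12825 genes. EdgeR's test called 0 of the 83 (0% of all genes in each direction), and DESeq2 called 0 (0.0156% of all genes higher). In edgeR's test 0 had an unadjusted p under 0.05, against 0.476% of all genes higher and 0.335% lower. Within litters 74 were positive, and 5 were higher at an unadjusted p under 0.05 (4.6% of all genes were). After adjustment 0 passed (0% of all genes in each direction). With correction for GC content and transcript length within litters, 36 of 83 were positive, the median was -0.01 and 0 passed (0.00787% of all genes higher). The smallest p belonged to Rpl37 (-1.37, SE 0.64), Rpl39 (1.54, SE 0.90), Rps4x (0.58, SE 0.38), Rpl22l1, Rps15a and Rpl9. Rpl39, a short protein of the exit tunnel, had 62.2, 53.3 and 18.1 CPM in the 1% libraries of litters 3 to 5, against 20.2, 24.9 and 1.95 CPM in their controls. It was higher in 3 of 3 litters, and the groups overlapped. Its adjusted p was 1 without litter and 0.33 within litters in edgeR's tests. Rps6 had 2091, 1485 and 1441 CPM at 1% and 1793, 1463 and 1475 CPM in controls (log2 fold change 0.14, SE 0.24).

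When the 2 acetophenone doses were compared, with all 11 libraries and litter as a block since they share only litter 3, 78 of 83 genes were negative at 100%, with a median of -0.54 and of 0.00 over all 13778 genes. Of the 83, 48 were lower at an unadjusted p under 0.05 (3.15% of all genes were), and 0 passed after adjustment (0% of all genes in each direction). DESeq2 called 0 of the 83, where 0.0508% of all genes were higher and 0.0145% lower. The smallest p belonged to Rps26 (-0.86, SE 0.22), Rpl32 (-0.74), Rpl13a, Rpl36al, Rpl23a and Rps21, each with adjusted p = 0.649 in edgeR's test. Without the block the median was -0.34, and 2 of the 83 were lower at an unadjusted p under 0.05 (1.08% of all genes). With the block and correction for GC content and transcript length the median was -0.28, and 16 were lower at such a p (2.77% of all genes). In litter 3, the one that holds both doses, Rps26, a small subunit protein at the mRNA exit channel, had 105 CPM at 100% and 198 CPM at 1%, beside 154 CPM in the control.

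**Figure D4:**
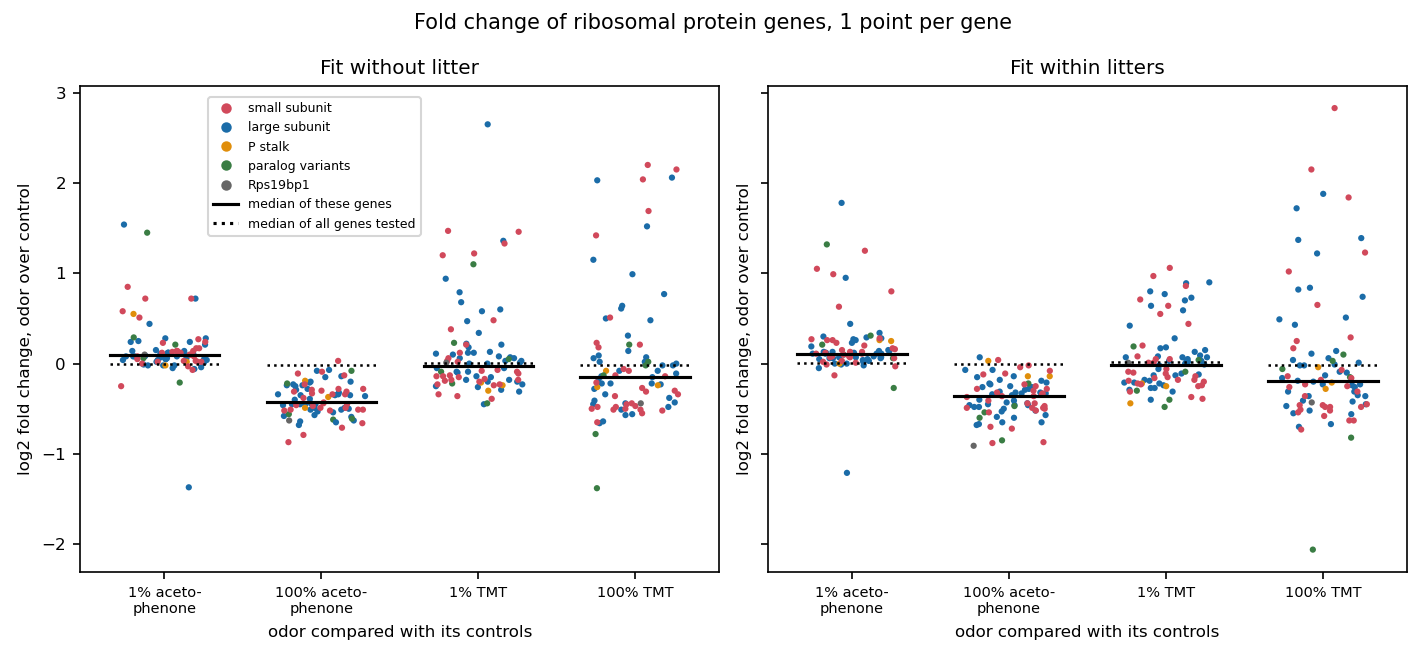
Log2 fold change, odor over control, of each ribosomal protein gene (1 point per gene, coloured by class) in 4 comparisons, from the fit without litter (left) and within litters (right). Solid bars mark the median of these genes and dotted bars the median of all genes tested; at 100% acetophenone the points sit together below 0 with a median of -0.43 (left), while at 100% TMT they spread up to 2.83 (right).

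With 100% TMT the signs were mixed. Of 84 tested, 55 had a negative and 29 a positive log2 fold change, with a median of -0.15 and of -0.01 over all 13966 genes. Without litter 0 of the 84 passed the test (0% of all genes in each direction), while 9 higher and 7 lower ones had an unadjusted p under 0.05 (8.09% and 7.26% of all genes). DESeq2 without litter called 0 of them, and 2.26% of all genes higher and 1.29% lower. Within litters 3 passed, all higher: Rps4x, Rps25 and Rpl5. This is 3 of 84, where 2.31% of all genes tested were called higher and 1.02% lower, so the share is near the background. At an unadjusted p under 0.05 in this edgeR fit, 11 of the 84 were higher and 27 lower, against 10.9% and 9.82% of all genes. The median within litters was -0.19, with 57 of 84 negative. Without litter, 25 of 43 large subunit genes were negative (median -0.08), and 22 of 31 small subunit genes (median -0.30). In CPM, 33 of the 84 (39.3%) were lower than control in 4 of 4 litters, against 16.1% of all genes tested.

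Rps4x, an X-linked small subunit protein, had 2463, 1756, 1255 and 2745 CPM in the 100% libraries of litters 1 to 4, against 1243, 91.9, 214 and 414 CPM in their controls. The groups did not overlap. Within litters its log2 fold change was 2.83 (SE 0.56, adjusted p = 0.0266 in edgeR's test), and without litter 2.20 (SE 0.85, adjusted p = 0.246). Its 1% libraries were divided, with 2247 and 2053 CPM in litters 1 and 4 and 134 and 137 CPM in litters 2 and 3. In the acetophenone experiment 10 of 11 libraries had between 1481 and 2719 CPM and the control of litter 5 had 797. The unique counts of Rps4x were between 1 and 29 per library, and with them the value within litters was 2.30 (adjusted p = 0.316).

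Rps25, a small subunit protein near the mRNA exit side, had 421, 211, 63.2 and 314 CPM at 100%, against 191, 24.2, 32.8 and 30.5 CPM in controls. It was higher in 4 of 4 litters, and the groups overlapped through the control of litter 1 and the 100% library of litter 3. Its value within litters was 2.15 (SE 0.50, adjusted p = 0.0432 in edgeR's test). Rpl5 had 2450, 2026, 1921 and 2176 CPM at 100%, against 2210, 1456, 1348 and 1283 CPM in controls. It was also higher in 4 of 4 litters, with overlap through the control of litter 1, and its log2 fold change within litters was 0.51 (SE 0.12, adjusted p = 0.0444). The windows printed above show the annotated starts of these 3 genes.

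The 3 calls did not hold under all settings. With 1 library left out, there were 0 higher calls without the control or the 100% library of litter 2, without the 100% library of litter 3, or without the control or the 100% library of litter 4. Unique counts gave 0 higher calls (1.84% of all genes), the 8 compared libraries alone 0 (0.28%), scaling by library size alone 1 (1.12%), no filter 7 (2.91%) and DESeq2 with litter 8 higher and 17 lower, where it called 7.06% of all genes higher and 3.64% lower. With correction for GC content and transcript length within litters, Rps4x (2.57, adjusted p = 0.0281) and Rps25 (2.14, adjusted p = 0.0445) still passed, Rpl5 turned to -0.28 (adjusted p = 0.296), and 6 genes were called lower by edgeR's test. These were Rps26 (-0.98), Rpl27a (-0.82), Rpl15 (-0.99), Rps23 (-0.84), Rps20 (-1.28) and the variant Rps27l (-0.76). In that fit 0.831% of all genes were called higher and 1.58% lower, so 6 of 84 is above the background and 2 of 84 nearer to it. Rps26 had 260, 415, 194 and 136 CPM at 100%, against 476, 518, 451 and 229 CPM in controls, lower in 4 of 4 litters. Rpl15 had 1274, 2158, 2103 and 1633 CPM at 100%, against 1766, 2179, 2566 and 2012 CPM in controls. The correction took 1 annotated transcript per gene, of 3706 bases for Rps20, 1922 for Rpl15 and 2045 for Rpl5. Their coding lengths were 360, 615 and 894 bases. For Rps26, Rpl27a, Rps23 and Rps27l the transcripts had between 499 and 1158 bases. The effect of this choice was not tested.

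By the rule of smallest p without litter, the genes to name at 100% TMT were Rps15a (2.15, SE 0.76), Rpl5, Rpl18 (-0.56, SE 0.21), Rps24 (1.69, SE 0.63), Rpl36a (1.52, SE 0.57) and Rpl4 (0.48, SE 0.18), with adjusted p between 0.222 and 0.241 in edgeR's test. Rpl18, a large subunit protein, had 638, 843, 688 and 599 CPM at 100%, against 1042, 1216, 1113 and 840 CPM in controls. It was lower in 4 of 4 litters, with overlap by the control of litter 4 alone. Rps24, a small subunit protein, had 449, 145, 82.6 and 469 CPM at 100%, against 94.5, 73.1, 96.5 and 94.2 CPM in controls, higher in 3 of 4 litters. Rps6 had 2228, 2753, 2359 and 2204 CPM at 100%, against 2405, 2263, 2161 and 1860 CPM in controls, a log2 fold change of 0.18 (SE 0.18, adjusted p = 0.685).

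In the same comparison Fau (-0.53) and Gnb2l1 (-0.15) were negative without passing. Mitochondrial ribosomal protein genes had a median of -0.35 with 61 of 76 negative, and within litters 3 of the 76 were called higher and 2 lower. The fit within litters, which also gave the calls named below for lists and markers, called 2.31% of all genes higher and 1.02% lower. The 27 other TOP mRNAs tested had a median of 0.02, and within litters Eif3e (2.73, adjusted p = 0.0205) and Eif4a2 (1.69, adjusted p = 0.0225), translation factor genes, were called higher by edgeR's test and Vim (-0.67, adjusted p = 0.0327), the intermediate filament vimentin, lower. Of 38 ribosome biogenesis genes 22 were positive (median 0.16), and of 37 genes for S6 kinases, phosphatases and the mTOR pathway 21 were positive (median 0.05), with 0 called in either fit. Markers of other cells differed beside these values. The 6 immature olfactory neuron markers summed to between 854 and 1455 CPM at 100% and to between 1298 and 2305 CPM in controls, and of the 5 tested 3 (Gap43, Gng8 and Tubb3) were called lower within litters. The 6 mature neuron markers were all positive (median 0.20), with Cnga2 called higher within litters. They summed to between 543 and 765 CPM at 100% and to between 318 and 862 CPM in controls. This sum was above that of the litter's own control in 2 of 4 litters. The 3 blood markers summed to between 3514 and 11502 CPM at 100% and to between 8653 and 20969 CPM in controls. The 4 gland markers summed to between 36677 and 56313 CPM at 100% and to between 11863 and 47842 CPM in controls. The groups did not overlap for the summed markers of horizontal basal cells, ensheathing glia and immune cells, which were lower at 100%. The 3 horizontal basal cell markers summed to between 19.8 and 33.8 CPM at 100% and to between 34.2 and 85.8 CPM in controls. The 4 ensheathing glia markers summed to between 336 and 441 CPM at 100% and to between 516 and 838 CPM in controls. Of these, Apoe was called lower within litters. The 4 immune markers summed to between 57 and 145 CPM at 100% and to between 149 and 238 CPM in controls. The part of all these markers in the ribosomal protein values was not tested.

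With 1% TMT, 41 of 84 genes had a positive log2 fold change, with a median of -0.03 and of 0.01 over all genes. EdgeR called 0 of the 84 without litter (0% of all genes in each direction) and 0 within litters (0.00716% of all genes higher, 0% lower). Without litter 1 higher and 1 lower one had an unadjusted p under 0.05, against 2.92% and 1.41% of all genes. Within litters 0 were higher and 4 lower at such a p, against 4.68% and 2.46% of all genes. DESeq2 called 0 of the 84 (0.0286% of all genes higher), and so did the fit with GC and length correction (0.00723% of all genes higher). Among the smallest p were those of Rpsa (-0.39, SE 0.15), Rpl39 (2.65, SE 1.11), Rpl22 (0.60), Rps15a (1.47) and Rps24 (1.22), each with adjusted p = 0.996 in edgeR's test. Rpsa, which is both a small subunit protein and a laminin receptor precursor, had 3301, 3447, 3218 and 3550 CPM at 1%, against 4840, 4883, 4177 and 3650 CPM in controls. The 4 libraries at 1% all lay below the 4 controls. Rpl39 had 99.3 CPM in the 1% library of litter 1 and between 2.19 and 3.62 CPM in the others, against 3.32, 3.17, 4.59 and 4.08 CPM in controls, and without that library its log2 fold change was -0.36. Rps6 had 1892, 2200, 1960 and 2911 CPM at 1% and 2405, 2263, 2161 and 1860 CPM in controls.

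Between the TMT doses, 56 of 84 genes were lower at 100% than at 1%, with a median of -0.14 and of -0.01 over all genes. EdgeR called 0 of the 84 with and without litter (0% of all genes in each direction). Without litter, 2 were higher at an unadjusted p under 0.05 (2% of all genes were). DESeq2 called 0 of the 84 (0.0716% of all genes higher and 0.0859% lower), and the fit with GC and length correction called 0 as well (0.0289% higher). Rpl5 had the smallest p (0.51, SE 0.18, adjusted p = 0.95) and was higher at 100% in 4 of 4 litters, with 2450, 2026, 1921 and 2176 CPM at 100%, against 2093, 1353, 1133 and 1784 CPM at 1%. Rps19bp1, the binding protein, had 34.9, 37.4, 35.2 and 24.6 CPM at 100%, against 37.8, 43, 49.1 and 57.4 CPM at 1%, without overlap (log2 fold change -0.45, SE 0.21).

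The responses to 100% of the 2 odors were set against each other as a difference of differences, acetophenone minus TMT. Of 83 genes 61 were negative, with a median of -0.28 and of -0.07 over all 13942 genes. No gene passed without litter (0% of all genes in each direction). At an unadjusted p under 0.05, 9 of the 83 were negative and 0 positive, against 4.44% and 0.545% of all genes. DESeq2 called 0 of the 83 (0.0143% of all genes higher and 0.0717% lower). Within litters 0 of the 83 passed, where 0.0646% of all genes were called lower and 0% higher. The smallest p belonged to Rps24 (-2.11, SE 0.68), Rps25 (-2.54), Rps4x (-2.30), Rpl36a (-1.85), Rpl39 (-2.58) and Rps15a (-2.10). With correction for GC content and transcript length within litters the median was -0.09, against 0.03 over all genes, and 50 of the 83 were negative. A difference between the odors in these genes was thus not established by the test, and the 2 odors were also run in separate litters.

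**Figure D5:**
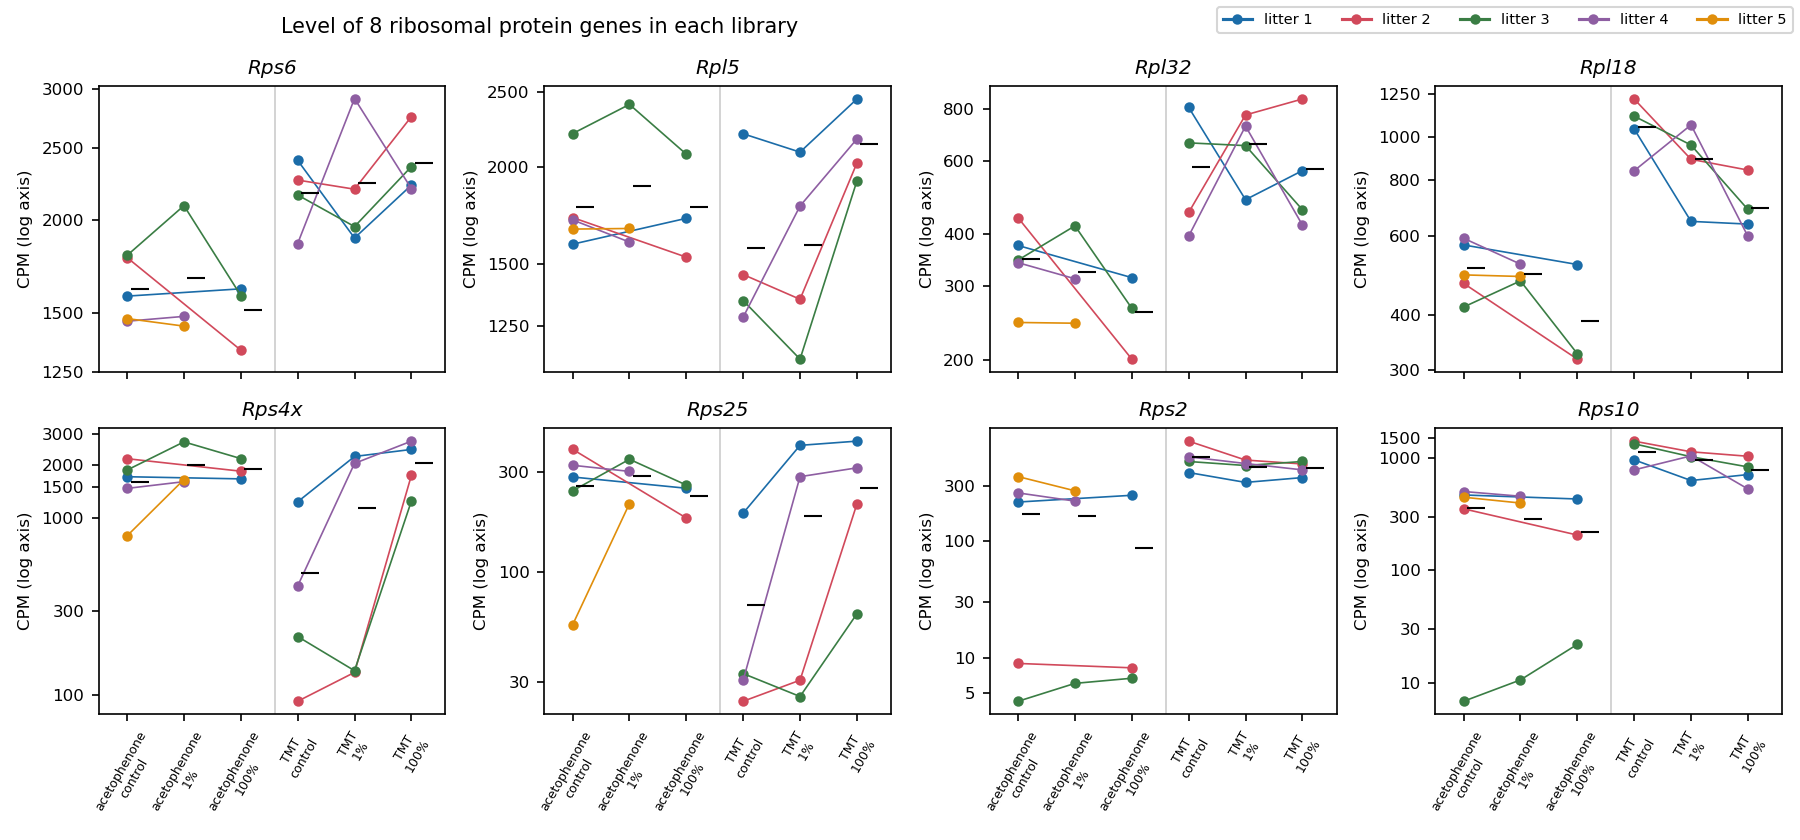
Level of 8 genes in each library (CPM, log axis), with libraries of 1 litter joined by lines and the group mean as a black bar. Rps6 stays between 1338 and 2911 CPM, Rps4x and Rps25 are low in TMT controls of litters 2 to 4, and Rps2 and Rps10 are low in acetophenone litters 2 or 3 whatever the odor.

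Some genes differed strongly between litters whatever the odor group. These genes were chosen after their values were seen, and the values are given with no test. Rps2, a small subunit protein at the mRNA entry channel, had between 4.21 and 8.9 CPM in the 5 acetophenone libraries of litters 2 and 3, whether 1%, 100% or control, and between 217 and 724 CPM in the other 18 libraries. Rps10 had between 6.92 and 22.1 CPM in the 3 libraries of litter 3 and between 206 and 1401 CPM elsewhere. Rpl13, a large subunit protein, had between 127 and 296 CPM in litters 2 and 3 of acetophenone and at least 1501 CPM elsewhere. Library titles carry another code for these litters, so that litter and whatever this code stands for are confounded and cannot be told apart. Of the 79 ribosomal protein genes with a mean count of at least 50, 9 (11.4%) had all 5 libraries of these litters below the other 6 of the experiment and 2 (Rpl7 and Rps4x, 2.53%) above. Among all 9103 genes with such a count it was 13.6% below and 11.3% above. In TMT, 5 of the 79 (6.33%) had the 3 libraries of litter 1 below the other 9, against 1.31% of all genes, and 1 (Rpl30, 1.27%) above, against 5.91%.

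Levels over all genes also varied with base composition, to a degree that differed between libraries. The part of base composition in the shifts between litters was not tested. Over 9024 genes with a mean count of at least 50, the deviation of a gene's log2 level in a library from its mean correlated with the GC content of its transcript at Spearman values between -0.57 and -0.40 in the 5 libraries of acetophenone litters 2 and 3, and between 0.41 and 0.53 in the 4 TMT controls. In the 1% TMT libraries of litters 1 to 4 it was -0.04, 0.43, 0.43 and 0.26, and in the 100% TMT libraries 0.01, 0.26, 0.15 and -0.11. Over the 84 ribosomal protein genes the log2 fold change at 100% TMT correlated with GC content at -0.52, both without litter and within litters, and at 1% TMT at -0.56 without litter and -0.48 within litters. Over 83 genes it was -0.17 without litter at 100% acetophenone and, at 1% acetophenone, -0.47 without litter and -0.38 within litters. At 100% acetophenone the fold change correlated with transcript length at 0.62 without litter, the shorter genes having the more negative values. The genes share libraries and depth, and these correlations across genes are descriptions. The transcripts of the 86 genes had a median length of 802 bases, against 2106 for all genes with a transcript, and a median GC content of 50.8%, against 49.5%.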

How the data were processed

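Polysome-associated RNA pulled down with an antibody against phosphorylated S6 was amplified to cDNA and sequenced from Illumina Nextera libraries, per the labels' protocols. Reads were aligned with Bowtie and assigned with bedtools on mm10, per the submitters' processing notes; their versions and settings are not stated there. The authors deposited, per library, 20 running sums for each of 23481 symbols. The first deposited column was read, from its values, as raw counts of reads with 1 place. The last deposited column was read as estimated counts of reads with up to 20 places, split where a read matched several listed genes. Strand is not stated, so overlapping and antisense genes cannot be separated.

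Estimated counts were rounded and tested with edgeR 4.0.16 (quasi-likelihood, TMM scaling, filterByExpr with a minimum count of 10, R 4.3.3) over all genes, with Benjamini-Hochberg adjustment and a threshold of 0.05. The spread was shared over all libraries entered in a fit. DESeq2 1.42.0 was an alternative, with unique counts, other scalings, no filter, a spline correction (4 degrees of freedom) for GC content and transcript length, and each library left out. The edgeR test without litter was tried on simulated counts for 100% acetophenone and 100% TMT against controls. Litter numbers in the labels pair libraries. Over genes, deviations of the libraries of 1 litter from their group means correlated between 0.53 and 0.78 at 100% acetophenone. They correlated less in TMT (0.28, 0.11, 0.06 and 0.05 in litters 1 to 4 at 100%). With controls of other litters the highest value was -0.02 at 100% acetophenone. In TMT at 100% it was -0.05, 0.03, 0.05 and 0.06 for litters 1 to 4, so the pairing did not stand out in litters 3 and 4. Whether libraries are separate animals is not stated, so p-values measure the spread between these libraries. Wilson intervals (95%) cover counting error only, and amplified reads are not independent molecules.

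Members and lists were chosen with earlier results of these data known. Named genes were Rps6, the members past the threshold or else the 6 with the smallest p in each comparison, the paralog variants, and the extremes of level and of unique share; others are marked as chosen after their values were seen. Some genes that the rule names are not reported here; counts and medians include them.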

Additional observations from a re-analysis of the deposited data

Results flagged for a closer look

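In groups of 4 or 5 libraries, 12 of 116 groups of values held 1 library far from the others. The groups were of 28 named genes and of the share of counts on the ribosomal protein genes. Chance gives about 1 in 20 for a group picked beforehand. Most of these genes were named by their values in the same libraries, and they share those libraries, so the count cannot be weighed against that rate. The values are CPM, and the causes were not tested. Among acetophenone controls, that of litter 3 had 26 for Rpl37 (others between 2.41 and 8.94) and 2211 for Rpl5 (others between 1593 and 1724). Among TMT controls, that of litter 1 had 292 for Rpl22 (others up to 140), 306 for Rpl35a (others up to 72.6), 110 for Rpl36a (others up to 27.9) and 191 for Rps25 (others up to 32.8). The TMT control of litter 2 had 73.1 for Rps24, below 94.2 to 96.5 in the others. Among 1% TMT libraries, that of litter 1 had 638 for Rpl13a (others from 1418), 21 for Rpl22l1 (others up to 1.6) and 99.3 for Rpl39 (others up to 3.62). The 1% library of litter 4 had 3660 for Rpl4 (others up to 2617), and that of litter 2 had 159 for Rps21 (others up to 104). No ribosomal protein gene passed the test of a difference between the 2 odors' responses.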

How the results depend on the processing

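Of 864 values for single genes under other settings, 824 kept direction and side of the threshold, and of 419 counts, medians and shares 402 did. With litter as a replicate block, 3 ribosomal protein genes were called higher at 100% TMT instead of 0, and no other comparison's calls of these genes changed. With GC and length correction and the block it was 2 higher and 6 lower. Within litters, settings chosen after seeing the data gave 0 higher with unique counts, 1 by library size alone, 7 with no filter, 8 higher and 17 lower by DESeq2 and 0 with the 8 compared libraries alone; leaving out 1 library gave 0 to 4 higher and 0 to 3 lower. The ratio of mean shares at 100% TMT was 0.789 with unique counts, against 0.896. Signs turned with unique counts for Rpl27 at 100% acetophenone (0.10), Rps6 at 100% TMT (-1.34), 1% TMT (-0.80) and between TMT doses (-0.54), Rpl23a between acetophenone doses (0.10) and Rpl36a between odors (0.61). With GC and length correction they turned for Rps6 at 1% acetophenone (-0.01) and 1% TMT (-0.09) and for Rpl5 at 100% TMT (-0.28). At 1% TMT, Rps6 turned without the control of litter 1 (-0.03), the 1% library of litter 2 (-0.01) or that of litter 4 (-0.07), and Rpl39 without the 1% library of litter 1 (-0.36). Over all libraries left out, the log2 fold change of Rps6, 1% TMT against controls, lay between -0.07 and 0.12, and the log2 fold change of Rpl39, 1% TMT against controls, between -0.36 and 3.04. The cause was not tested. With 1 library left out, the median log2 fold change ran between -0.58 and -0.18 at 100% acetophenone, 0.02 and 0.31 at 1% acetophenone, -0.38 and 0.00 at 100% TMT, -0.10 and 0.08 at 1% TMT, -0.32 and -0.04 between TMT doses, -0.69 and -0.41 between acetophenone doses, and -0.48 and -0.09 between odors. Unique counts of most of these genes are too few to compare groups.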
